A study of Mus musculus with 158 samples.

Results

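Dicer1 and Cnot2 were the genes of small RNA silencing and messenger RNA decay followed here in a pooled short hairpin RNA (shRNA) screen for growth in the lung. All hairpins listed against either gene were taken, each in the libraries of its own pool and relative to the other gene-targeting hairpins of that pool. These were 2 of 285 targeted genes and 6 of 1000 targeting hairpins. Dicer1 had 3 hairpins, all in pool 6, and Cnot2 had 1 hairpin in pool 18 and 2 in pool 19. The Cnot2 hairpins of pools 18 and 19 were measured in separate day 0 and lung libraries but shared the cultures named for both pools.

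An shRNA is transcribed as a hairpin, trimmed to a short duplex and loaded onto an Argonaute protein, which then represses messages that pair with it. Dicer1 encodes the ribonuclease that trims precursor microRNAs and most shRNAs, so a hairpin against Dicer1 targets an enzyme of the pathway through which shRNAs act. Cnot2 encodes a non-catalytic subunit of CCR4-NOT, the complex that shortens poly(A) tails and starts the decay of many messages, those bound by microRNAs among them. A hairpin that slows growth becomes rarer among the cells of its pool, and one that favours growth becomes more common. The measured quantity was therefore the abundance of a hairpin in genomic DNA, not the level of the targeted message, and knockdown was not measured in these files.

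The host cells of every group were PDA530 Met, a mouse pancreatic adenocarcinoma line from a liver metastasis, so all results come from 1 line. Each pool was delivered at a multiplicity of infection of 0.3, and infected cells were selected for 4 days with 3 µg/ml puromycin. The 3 arms were cells at day 0, cells cultured for 28 days, and lung tumours 28 days after tail vein injection into 3 mice per pool, all tumours of a mouse being combined in 1 sample. The labels give no strain or age of the mice. Tail vein injection places cells directly in the circulation, so the lung arm holds no step of escape from a primary tumour. Lung libraries come from different mice and cultures were kept in triplicate, but nothing says whether day 0 libraries of a pool came from separate infections. The p-values against day 0 pool the spread of day 0 libraries, which may be technical, with that of the other arm.

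Of 158 samples, 148 had values, with 4122499 to 13226329 reads per library at day 0, 4525346 to 13728338 in culture and 58189 to 11104545 in lungs. Among the pools of these hairpins, lung libraries differed most in depth in pool 6. Libraries 6A and 6B held 40555 and 252958 reads of the pool's targeting hairpins, and 6C held 1834713. The 8 control hairpins shared by all pools took 74.39% of the reads of lung library 6C, against 29.59% and 29.04% in 6A and 6B and 29.23% to 29.72% at day 0. Cultures of pool 6 were named jointly for pools 6 and 7 (6/7A, 6/7B and 6/7C). Those of pools 18 and 19 were named 18/19A, 18/19B and 18/19C, with 1 further culture, 19D, named for pool 19 alone. Levels are given as CPM, the count of a hairpin per 1000000 reads of the pool's own targeting hairpins after TMM scaling (trimmed mean of M-values). Reads came from PCR without molecular identifiers, so intervals on reads cover counting error only.

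Across both genes, 4 of 6 hairpins changed between day 0 and lungs, 1 higher and 3 lower. Here a change was called at a Benjamini-Hochberg adjusted p under 0.05 in limma, adjusted over all hairpins of all pools. The background was wide, with 33.8% of 891 hairpins called in this comparison, 14.7% higher and 19.1% lower. On the log2 scale lung libraries varied more than day 0 libraries for each of the 6 hairpins, and with the spread estimated in each arm on its own 3 of 6 were called, beside 238 of all 891 hairpins. In culture against day 0, 4 of 6 hairpins changed, none higher and 4 lower, against 60.6% of 945 hairpins called in all, 28.8% higher and 31.9% lower. Between lungs and culture, 3 of 6 changed, 1 higher and 2 lower, against 24.9% of 889 hairpins, 11.6% higher and 13.3% lower. The median log2 fold changes of the 6 hairpins were -1.09, -0.96 and -0.68 in these comparisons, beside -0.13, -0.10 and -0.11 over all hairpins. Both comparisons with day 0 share their day 0 libraries, and with 6 hairpins these counts describe the members and do not set them apart from the background.

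The balance of higher and lower calls moved with some scalings. With the deposited scaling or the control hairpins as reference, 3 of 6 hairpins were called for lungs against day 0, none higher, beside 256 and 236 of all 891 hairpins, where TMM gave 301. Over all hairpins the share of calls that were higher in this comparison was 43.5% with TMM, 24.4% with totals of targeting reads and 30.5% with the deposited values, but 45.8% with the control reference. The median change was -0.13, -0.73, -0.82 and -0.57 in these fits. For culture against day 0 the share was 47.5% with TMM, 26.5% with totals, 16.1% with the controls and 20.6% with the deposited values, with medians of -0.10, -0.64, -0.99 and -0.89. For lungs against culture it was 46.6% with TMM, 82.4% with the controls and 60.6% with the deposited values, with medians of -0.11, 0.30 and -0.13, and -0.26 with totals.

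**Figure D1:**
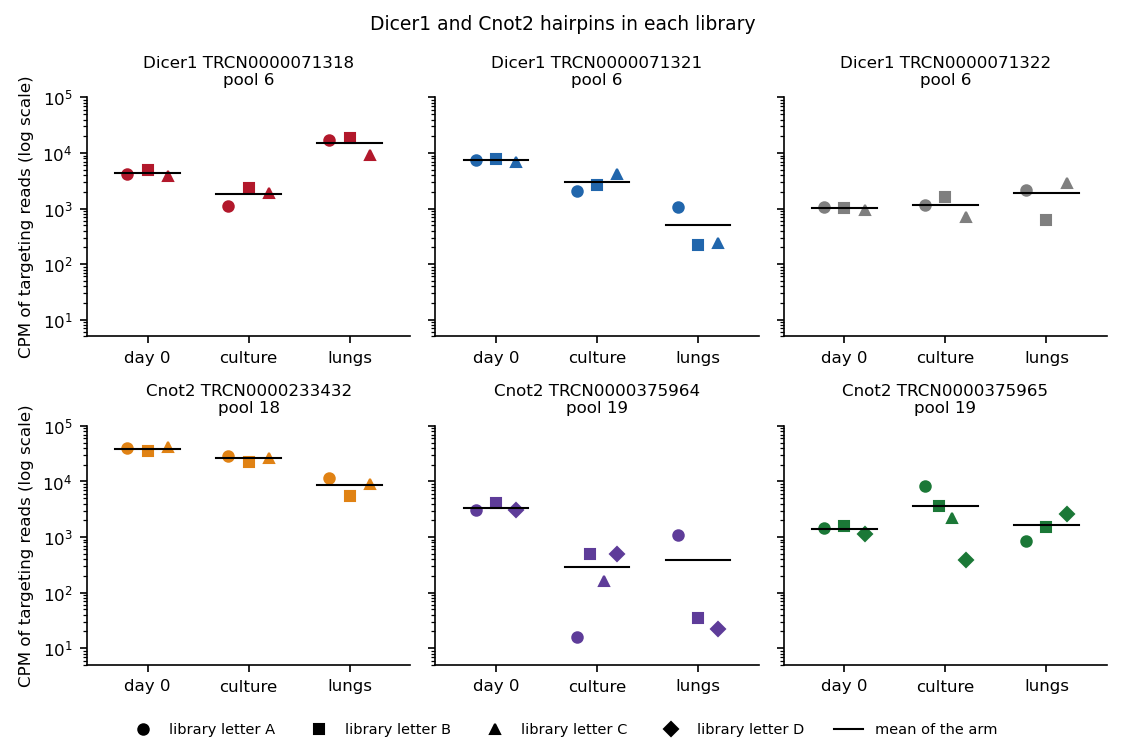
CPM of each hairpin in each library on a log scale, by arm (day 0, culture, lungs), with marker shapes for library letters and a line at the mean of the arm. TRCN0000071318 was highest in lungs and TRCN0000071321 lowest there, while TRCN0000375964 ranged from 15.9 to 503 CPM in culture and from 22.4 to 1106 CPM in lungs.

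The first Dicer1 hairpin, TRCN0000071318, fell in culture and was most abundant in lungs. Its level was 4233, 4980 and 3818 CPM in day 0 libraries 6A, 6B and 6C, and 1133, 2359 and 1887 CPM in cultures 6/7A, 6/7B and 6/7C. In lung libraries 6A, 6B and 6C it stood at 17434, 18290 and 9093 CPM. All 3 lung libraries lay above all day 0 libraries, and all cultures lay below them. Means were 4343 ± 589 at day 0, 1793 ± 618 in culture and 14939 ± 5081 CPM in lungs (SD, n = 3 each). The hairpin moved from the 41st most abundant of 52 in its pool at day 0 to the 42nd in culture and the 22nd in lungs.

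In limma, TRCN0000071318 was 2.52-fold lower in culture than at day 0 (log2 fold change -1.33, SE 0.30, Benjamini-Hochberg adjusted p = 0.00209), the 8th lowest change of 51 hairpins in pool 6, of which 40 were called. In lungs it was 3.52-fold higher than at day 0 (1.82, SE 0.37, limma adjusted p = 0.00567), the 4th highest change of 51 hairpins tested in pool 6. Against culture it was 8.04-fold higher (3.01, SE 0.47, limma adjusted p = 1.762e-05), the highest of the 51. For this last comparison limma's prior in pool 6 counted as 30 degrees of freedom, so the small p rests largely on the spread of the pool's other hairpins. Leaving out any 1 library kept these 3 calls, with log2 fold changes of 1.55 to 2.15 for lungs against day 0.

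The rise of TRCN0000071318 in lungs was a rise relative to the other hairpins of pool 6. Scaled on the control hairpins it was 0.28 (95% interval -1.92 to 2.49, limma adjusted p = 0.854), and with the deposited values 0.51 (limma adjusted p = 0.654). Against culture the same scalings gave 2.63 and 2.57 (limma adjusted p = 0.104 and 0.0517). The median hairpin of pool 6 moved with it, from -0.03 with TMM to -1.56 with the controls and -1.33 with the deposited values, and the hairpin stayed 1.84 above that median and 4th of 51 in all of these. The part played by the control share of lung library 6C in these values was not tested.

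**Figure D2:**
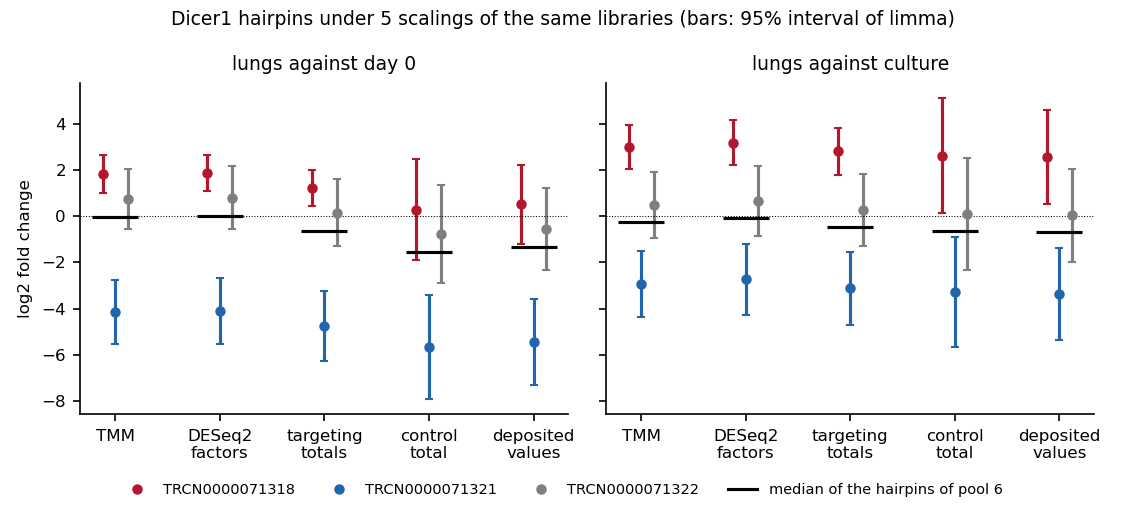
log2 fold change of the 3 Dicer1 hairpins (points, with limma's 95% interval) and the median of the hairpins tested in pool 6 (black dashes) under 5 scalings, for lungs against day 0 and against culture. The hairpins keep their order and distances under each scaling, while TRCN0000071318 for lungs against day 0 moves from 1.82 with TMM to 0.28 with the control total.

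The second Dicer1 hairpin, TRCN0000071321, fell in culture and fell further in lungs. It was measured at 7355, 7899 and 6745 CPM in day 0 libraries 6A, 6B and 6C and at 2027, 2685 and 4207 CPM in cultures 6/7A, 6/7B and 6/7C. Lung libraries 6A, 6B and 6C gave 1076, 224 and 239 CPM. The arms did not overlap, and lung library 6A stood above the other lungs. These lung values rest on 39, 44 and 372 reads, and the 39 reads of 6A correspond to 962 CPM before TMM scaling (95% Clopper-Pearson interval 684 to 1314). Taken over all reads of the library, lung library 6C held 51.8 CPM. In libraries of other pools from the same sequencing lane the hairpin reached up to 19.5 CPM of all reads. Means were 7333 ± 577 at day 0, 2973 ± 1118 in culture and 513 ± 487 CPM in lungs (SD, n = 3 each).

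Against day 0, TRCN0000071321 was 2.58-fold lower in culture (log2 fold change -1.37, SE 0.26, limma Benjamini-Hochberg adjusted p = 0.000576), the 7th lowest of the 51 and almost the same fall as that of TRCN0000071318. In lungs it was 17.7-fold lower (-4.15, SE 0.62, limma adjusted p = 0.00155), the lowest change of the 51 hairpins of pool 6. Against culture it was 7.57-fold lower (-2.92, SE 0.70, limma adjusted p = 0.00237), the 3rd lowest. Both lung calls held under every scaling and with any 1 library left out. The size of the fall leaned on lung library 6A, without which it was -5.00 from day 0 and -3.56 from culture, against -3.82 and -2.48 without 6B and -3.79 and -2.61 without 6C. The fall in culture was not called when all 3 arms were fitted together (limma adjusted p = 0.0824).

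The third Dicer1 hairpin, TRCN0000071322, was the rarest of the gene at day 0 and did not pass the test in any comparison. It stood at 1046, 1015 and 949 CPM in day 0 libraries 6A, 6B and 6C and at 1177, 1630 and 702 CPM in cultures 6/7A, 6/7B and 6/7C. In lung libraries 6A, 6B and 6C it gave 2179, 632 and 2897 CPM. Lung libraries 6A and 6C lay above every day 0 library and 6B lay below all of them. The log2 fold change was 0.75 for lungs against day 0 (95% interval -0.56 to 2.07, limma adjusted p = 0.345), 0.14 for culture against day 0 (-0.66 to 0.94, limma adjusted p = 0.768) and 0.47 for lungs against culture (-0.95 to 1.90, limma adjusted p = 0.629). Without lung library 6B the first of these was 1.35 and passed the test (limma adjusted p = 0.00347). The intervals allow changes of more than 1 log2 unit in lungs, so a lack of effect is not shown.

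The hairpins of Dicer1 were set against each other inside each library, where the scaling cancels. The log2 ratio of TRCN0000071318 to TRCN0000071321 was -0.80, -0.67 and -0.82 in day 0 libraries 6A, 6B and 6C and -0.84, -0.19 and -1.16 in cultures 6/7A, 6/7B and 6/7C. In lung libraries 6A, 6B and 6C it was 4.02, 6.34 and 5.24. The ratio thus lay on the opposite side of 0 in every lung library, while day 0 and culture overlapped. The difference was 5.96 for lungs against day 0 and 5.93 for lungs against culture (exact permutation test, two-sided p = 0.1 each, the smallest that 3 against 3 libraries allow), and 0.03 for culture against day 0 (exact permutation p = 1). TRCN0000071318 did not separate from TRCN0000071322 between day 0 and lungs: the difference was 1.06 and the ratios overlapped, with lung library 6C at 1.65 below the day 0 libraries at 2.01 to 2.29 (exact permutation p = 0.4). Against culture the same pair differed by 2.53 in lungs, with ratios that did not overlap (exact permutation p = 0.1). TRCN0000071321 lost ground against TRCN0000071322 in lungs, by a difference of -4.90 from day 0 (exact permutation p = 0.1). In culture TRCN0000071318 and TRCN0000071321 both fell relative to TRCN0000071322, with differences of -1.47 and -1.5 from day 0 and ratios that did not overlap (exact permutation p = 0.1 each). Over the 12 such tests, 3 comparisons for each of 4 pairs in both genes, the lowest adjusted p was 0.133.

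Opposite calls among hairpins of one gene were also seen elsewhere in the screen. For lungs against day 0, 11 of 74 sets of 3 hairpins of one gene in one pool held calls in both directions, Dicer1 among them. The span between its highest and lowest log2 fold change, 5.96, was the 5th widest of the 74, whose median was 2.54. For lungs against culture 5 of 74 sets held calls in both directions, and the span of Dicer1, 5.93, was the 2nd widest beside a median of 2.41. In culture against day 0 its span of 1.51 was the 58th widest of 78, beside a median of 2.09. These ranks are a description and were not tested.

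**Figure D3:**
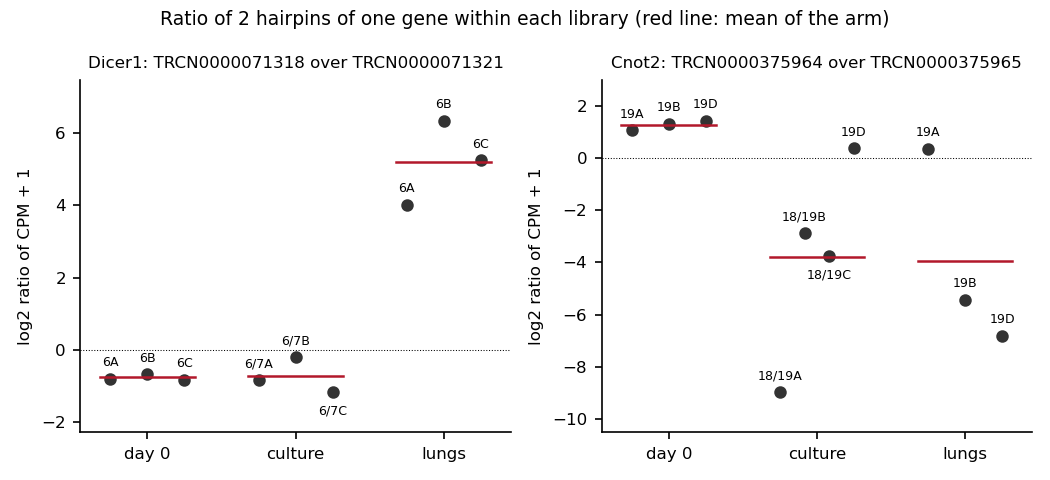
log2 ratio of the CPM + 1 of 2 hairpins of one gene within each library, for Dicer1 (left) and Cnot2 (right), by arm, with a red line at the mean of the arm and library names beside the points. For Dicer1 the lung libraries stand at 4.02 to 6.34 and all others below 0, whereas for Cnot2 culture 19D and lung library 19A stand above the other libraries of their arms, at 0.39 and 0.37.

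The Cnot2 hairpin of pool 18, TRCN0000233432, was abundant at day 0 and fell in both later arms, most in lungs. It took 39944, 35000 and 41725 CPM in day 0 libraries 18A, 18B and 18C and 28344, 22831 and 26796 CPM in cultures 18/19A, 18/19B and 18/19C. Lung libraries 18A, 18B and 18C held 11574, 5551 and 9163 CPM. The arms did not overlap. Means were 38890 ± 3484 at day 0, 25990 ± 2843 in culture and 8763 ± 3032 CPM in lungs (SD, n = 3 each), and the hairpin went from the 11th most abundant of 53 to the 15th and the 29th. At least 32544 reads lay behind each value, so counting error was small.

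In lungs TRCN0000233432 was 4.99-fold lower than at day 0 (log2 fold change -2.32, SE 0.32, limma Benjamini-Hochberg adjusted p = 0.00199) and 3.14-fold lower than in culture (-1.65, SE 0.37, limma adjusted p = 0.0125). Each was the 9th lowest change of 53 hairpins in pool 18. In culture it was 1.5-fold lower than at day 0 (-0.58, SE 0.13, limma adjusted p = 0.00721), the 19th lowest change of the 53, of which 24 were called. The fall from day 0 to lungs held under every alternative run, with log2 fold changes of -2.50 to -2.01 when 1 library was left out. The other calls were less firm. Without culture B the fall in culture was -0.34 (limma adjusted p = 0.141), and with DESeq2 size factors or all 3 arms in one fit it was not called (limma adjusted p = 0.0836 and 0.126). Lungs against culture was not called without culture A (limma adjusted p = 0.0525) or C (limma adjusted p = 0.0977).

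Of the Cnot2 hairpins in pool 19, TRCN0000375964 fell far in both later arms but unevenly between libraries. It stood at 3102, 4023 and 3017 CPM in day 0 libraries 19A, 19B and 19D. Cultures 18/19A, 18/19B, 18/19C and 19D gave 15.9, 496, 161 and 503 CPM, and lung libraries 19A, 19B and 19D gave 1106, 34.6 and 22.4 CPM. Every culture and lung library lay below every day 0 library, but cultures and lungs overlapped, and lung library 19A was far above the other lungs. The lowest values rest on 26 reads in culture 18/19A and on 156 and 109 reads in lung libraries 19B and 19D, or 3.35, 28.3 and 13.8 CPM when taken over all reads of the library. In libraries of other pools from the same sequencing lane the hairpin reached at most 0.863 CPM of all reads.

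TRCN0000375964 was 20.7-fold lower in culture than at day 0 (log2 fold change -4.37, SE 1.14, limma Benjamini-Hochberg adjusted p = 0.00822) and 34.5-fold lower in lungs (-5.11, SE 1.53, limma adjusted p = 0.0457). Both were the lowest changes of 52 hairpins in pool 19. The culture call held with any 1 library left out, at -4.92 to -3.29, the latter without culture 18/19A. The fall in lungs was -6.87 without lung library 19A (limma adjusted p = 0.000196) and -4.24 without 19D (limma adjusted p = 0.0407). The lung call was near the threshold: it was not made by edgeR (-3.13, adjusted p = 0.179), without lung B (-4.38, limma adjusted p = 0.0865), without day 0 A, B or D (limma adjusted p = 0.0875, 0.15 and 0.114), with no trend and no robust estimation (limma adjusted p = 0.0509), or with the spread estimated in each arm on its own (limma adjusted p = 0.0713). Leaving out the C libraries of day 0, of which pool 19 has none, also moved it to 0.0685 through the adjustment over all pools alone. Lungs and culture were not told apart, with a difference of -0.77 (95% interval -4.43 to 2.89, limma adjusted p = 0.758).

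The other Cnot2 hairpin of pool 19, TRCN0000375965, passed the test in no comparison. Day 0 libraries 19A, 19B and 19D gave 1476, 1604 and 1112 CPM. Cultures 18/19A, 18/19B, 18/19C and 19D gave 8443, 3597, 2159 and 384 CPM, and lung libraries 19A, 19B and 19D gave 858, 1546 and 2641 CPM. The 3 cultures named for both pools lay above all day 0 libraries and culture 19D lay below them, while lungs lay on both sides of day 0. The log2 fold change was 0.70 in culture (95% interval -1.30 to 2.69, limma adjusted p = 0.517) and 0.14 in lungs (-1.07 to 1.34, limma adjusted p = 0.860), and lungs differed from culture by -0.60 (-2.83 to 1.64, limma adjusted p = 0.692). Without culture 19D the hairpin was higher in culture by 1.55 (limma adjusted p = 0.0161). The part of the joint naming of cultures in this difference was not tested.

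Inside the libraries of pool 19, the log2 ratio of TRCN0000375964 to TRCN0000375965 was 1.07, 1.33 and 1.44 in day 0 libraries 19A, 19B and 19D. It was -8.96, -2.86, -3.74 and 0.39 in cultures 18/19A, 18/19B, 18/19C and 19D, and 0.37, -5.44 and -6.82 in lung libraries 19A, 19B and 19D. No culture or lung ratio reached the day 0 range. The mean ratio moved by -5.07 in culture (exact permutation p = 0.0571, the smallest that 4 against 3 libraries allow). In lungs it moved by -5.24 (exact permutation p = 0.1), while lungs and culture differed by -0.17 (exact permutation p = 0.971). The SD between libraries was 0.19 at day 0, 3.88 in culture and 3.81 in lungs. The replicates outside day 0 thus spread over several log2 units for this pair.

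**Figure D4:**
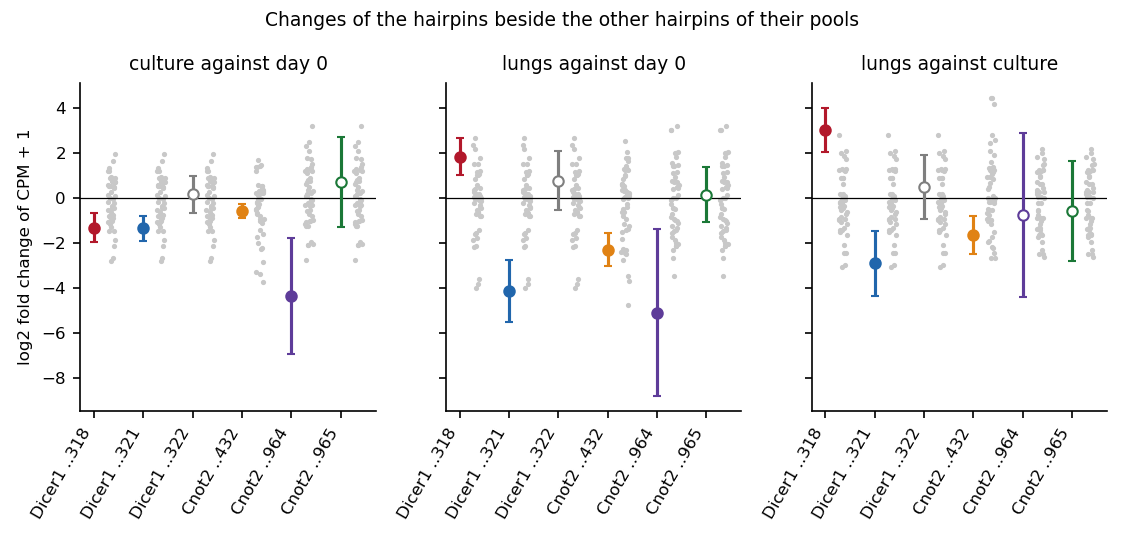
log2 fold change with limma's 95% interval for each Dicer1 and Cnot2 hairpin, named by the last digits of its identifier, in the 3 comparisons; filled points passed the test, open points did not, and grey dots are the other hairpins of the same pool. Dicer1 TRCN0000071321 and Cnot2 TRCN0000375964 lay below every other hairpin of their pools for lungs against day 0, at -4.15 and -5.11, and Dicer1 TRCN0000071318 lay above every other for lungs against culture, at 3.01.

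For each hairpin the pattern most like its own was sought among the other hairpins of its pool, as Pearson r of log2(CPM + 1) over the pool's libraries, 9 in pools 6 and 18 and 10 in pool 19. These values are descriptions, since the hairpins share libraries and scaling. TRCN0000071318 was most like hairpins against Plxna1, a semaphorin receptor (r = 0.938), and Nras, a small GTPase (r = 0.927). TRCN0000071321 was most like hairpins against the calcium-binding protein S100a6 (r = 0.932) and the ribonucleotide reductase subunit Rrm1 (r = 0.902). The pair had r = -0.60 with each other and ranked 39th and 40th of 50 in likeness. TRCN0000071322 had no close match, the nearest being against Kcnn4, a potassium channel (r = 0.644), and Hsf2, a heat shock factor (r = 0.643).

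In pool 18, TRCN0000233432 was most like hairpins against Trit1, a transfer RNA modifying enzyme (r = 0.959), and Vcp, an ATPase that extracts proteins for degradation (r = 0.876). In pool 19, TRCN0000375964 was nearest to hairpins against the protocadherins Pcdh18 (r = 0.668) and Pcdhb6 (r = 0.649). TRCN0000375965 was nearest to hairpins against Dach2, a transcription cofactor (r = 0.744), and Ftsjd2, a cap methyltransferase (r = 0.728). The pair of Cnot2 hairpins had r = -0.538, and each ranked 49th of 51 for the other.

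Of 38 symbols listed for small RNA silencing, Dicer1 alone was targeted, so no Argonaute, Drosha or TNRC6 hairpin could be set beside it. A separate list of other RNA processing and translation genes had 9 of 15 symbols in the screen, with 28 hairpins. It was chosen with earlier results of these data known and is not a survey of such genes. Trit1 and Ftsjd2, for example, were in the screen but not on the list. For lungs against day 0, 9 of 28 were called (32.1%, beside 33.8% of all hairpins), 3 higher and 6 lower. In culture against day 0, 15 of 28 were called (53.6%, beside 60.6%), 6 higher and 9 lower. For lungs against culture 10 of 28 were called (35.7%, beside 24.9%), 3 higher and 7 lower, the latter 25.0% beside 13.3% of all hairpins. These shares were not tested. Hairpins called in at least 2 of the 3 comparisons were 1 each against Alkbh8, Bzw2, Eftud2 (a spliceosome GTPase), Eif5b (a translation initiation factor), Nup133 (a nuclear pore protein) and Utp20 (a ribosomal RNA processing factor), 2 against Pak1ip1 and 3 against Msi2, an RNA-binding protein. These calls went both ways. For lungs against culture, those of Bzw2 and Pak1ip1 were higher and those of Eftud2, Eif5b, Msi2 and Nup133 lower. In culture against day 0, those of Alkbh8 and Msi2 were higher and the other calls lower. The median log2 fold changes of the 28 were -1.03, -0.14 and -1.41, beside -0.13, -0.10 and -0.11 over all hairpins. They describe this chosen list only, and not RNA processing genes at large.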

How the data were processed

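Hairpins were amplified from genomic DNA by two-step PCR, per the labels' protocols. BWA 0.5.9 is named in the submitters' processing notes. How the authors counted and scaled reads to the deposited signal, a normalised count per hairpin, was not given in the sources used here. Divided by the lowest value of its library, taken as 1 read, all 27241 deposited values were whole within 0.01 reads (100%), and these reads were used. Missing hairpins were taken as 0.

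Reads of a pool's targeting hairpins were scaled with TMM factors (edgeR 4.0.16), and log2(CPM + 1) was fitted per pool with limma 3.58.1 (R 4.3.3) for the 2 arms compared, with trend and robust estimation, leaving out hairpins with a mean under 10 reads. Printed CPM use factors over all 3 arms. The pseudocount of 1 CPM makes fold changes of rare hairpins too small. Pseudocounts of 10 and 100, a minimum of 100 reads, other scalings, edgeR, DESeq2 1.42.0, other variance models and left-out replicates were alternatives. On simulated data with a wider spread outside day 0, false calls for lungs against day 0 exceeded the intended rate, and a fit with the spread estimated per arm was added for that reason. Replicate letters were not used as pairs: in the pools of these hairpins 11 of 27 same-letter pairs correlated above 0.1, with a median r of 0.028, although all 3 pairs did so in pool 6 for lungs against culture (0.142 to 0.412) and in pool 18 for lungs against day 0 (0.172 to 0.427).

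Every Dicer1 and Cnot2 hairpin was named, with the 2 most alike hairpins of its pool. Hairpins of the listed genes were counted, and named where called in at least 2 of 3 comparisons. The members and lists were chosen with earlier results of these data known. Both symbols matched the RefSeq gene table (GRCm38.p6). Hairpin sequences were not used here, and the list of deadenylation and decay genes is not reported here. Samples of other pools entered the adjustment of p-values, the background shares and the counts over sets, lists and other-pool reads.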

Additional observations from a re-analysis of the deposited data

Results flagged for a closer look

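All 6 hairpins had reads in libraries of pools they do not belong to. The highest count in such a library was 98 reads for Dicer1 TRCN0000071318, 167 for TRCN0000071321 and 76 for TRCN0000071322. For Cnot2 it was 511 reads for TRCN0000233432, 8 for TRCN0000375964 and 61 for TRCN0000375965. As CPM of all reads in a library, the highest values in libraries of other pools were 20.4, 19.5 and 8.15 for Dicer1 and 72.6, 0.863 and 6.58 for Cnot2. In own libraries the lowest values were 51.8 for TRCN0000071321, in lung library 6C, 3.35 for TRCN0000375964, in culture 18/19A, and 3671 for TRCN0000233432, in lung library 18B. No cause was tested. Among the 4 culture libraries of pool 19 no value of these hairpins stood apart by Dixon's 95% limit, and arms of 3 libraries were not tested.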

How the results depend on the processing

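The number of the 6 hairpins called moved beyond 1.5 times once, to 2 for culture against day 0 with all 3 arms in one fit. With 1 replicate letter left out it ranged from 3 to 4 for lungs against day 0, 3 to 5 for culture against day 0 and 2 to 3 for lungs against culture. Over all hairpins these left-out fits called 148 to 388, 479 to 605 and 142 to 249. With the letter as a replicate block, 4, 4 and 3 hairpins were called, as without it, and over all hairpins 231, 575 and 192, so no member count depended on the pairing. In the pools and comparisons where all same-letter pairs correlated above 0.1, the replicate block kept the calls of TRCN0000071318 and TRCN0000071321 for lungs against culture (limma adjusted p = 0.00324 and 0.0419) and of TRCN0000233432 for lungs against day 0 (limma adjusted p = 2.13e-07). Over all hairpins, 148, 154 and 160 were called for lungs against day 0 without day 0 A, B and C, 364 for culture against day 0 with all 3 arms, and 145, 142 and 144 for lungs against culture without culture A, B and C. Direction changed only for changes that were not called, and the cause was not tested. TRCN0000071322 had -0.78 and -0.55 for lungs against day 0 with the control total and the deposited values, and -0.87 and -0.59 for culture against day 0, there also -0.12 with read totals and -0.14 to 0.51 with a replicate left out. TRCN0000375965 had -0.18, -0.24, -0.21 and -0.048 for lungs against day 0 with read totals, control total, deposited values and a minimum of 100 reads, and -0.42 to 0.55 with a replicate left out. In culture against day 0 it had -0.29 and -0.33, and for lungs against culture 0.055 and 0.11, with the control total and the deposited values, and for the latter comparison -1.35 to 0.04 with a replicate left out. TRCN0000375964 had 0.18 with edgeR and 0.40 with DESeq2 for lungs against culture, and -2.43 to 0.24 with a replicate left out. The ratio of TRCN0000071318 to TRCN0000071321 moved by -0.24 to 0.25 for culture against day 0, and that of TRCN0000375964 to TRCN0000375965 by -2.34 to 1.25 for lungs against culture, with a replicate left out, and by 0.32 with a pseudocount of 100. A fit with the spread estimated per arm and one with array weights by arm were chosen after seeing the data; they called 3, 4 and 3 and 4, 4 and 3 of the 6 hairpins, beside 238, 609 and 216 and 369, 615 and 215 over all hairpins. Depth limited lung libraries 6A and 6B most.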
